A study of Mus musculus with 6 samples.

Results

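The genes described here are 8 cartilage genes outside the collagens, Sox9, Sox5, Sox6, Comp, Matn3, Hapln1, Chad and Otor, taken by symbol from a table of 29587 mouse genes measured in apoptotic osteoblasts. A list of 9 symbols was set, and the other one, Acan, was not analysed here. The cells came from young mice in 3 libraries and from old mice in 3 libraries. In both groups, adherent cells grown out of bone fragments were passaged as bone marrow mesenchymal stem cells, kept for 3 days in osteogenic medium and killed by 0.5 hours of ultraviolet light, so every library is of dying cells and none is of living osteoblasts. The labels give no strain, sex, age in months or genotype for either group, and they leave unsaid whether each library is a different animal or culture. The p-values below thus gauge only library-to-library spread, possibly technical. The question was which of these transcripts differed with the age of the donor mice.

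Cartilage matrix is made by chondrocytes, which share a mesenchymal origin with osteoblasts. The transcription factor SOX9 drives chondrocyte genes, among them type II collagen and aggrecan, and SOX5 and SOX6 bind DNA beside it and strengthen its action without an activation domain of their own. The matrix proteins that follow bind collagen fibrils (COMP, matrilin-3), hold aggrecan on hyaluronan (the link protein HAPLN1) or attach cells (chondroadherin, the product of Chad), while Otor encodes otoraplin, a small secreted protein of the MIA family known from the inner ear and from cartilage. Cultured stromal cells and immature osteoblasts can carry transcripts of this program as well.

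One of the 8 genes, Otor, was called lower in old, and none was called higher, where 0.0999% of all tested genes were called lower and 1.47% higher (limma, adjusted p under 0.05). The Otor call was lost in 10 of 20 alternatives, given below, which include a looser cutoff that could not lose it. Otor was 2.09-fold higher in young by mean RPKM (reads per kilobase of gene length, scaled to the library's total). Sox9 had a young mean of 17.3 ± 3.97 RPKM against an old mean of 16.3 ± 0.942 RPKM (SD, n = 3 each), and was not called. The other 6 genes lay below 1 RPKM in every library and were not tested in the main comparison. The labelled cell type was checked against 10 osteoblast markers: 8 passed the filter, with Col1a1 at 1062 to 1829 RPKM, whereas the mineralisation marker Alpl lay between 0.421 and 0.757 RPKM and Bglap between 0.390 and 0.900 RPKM. Of the 8, Spp1 rose and Sp7 fell (limma adjusted p under 0.05), and both calls were lost without young replicate 3 or any one old library, that of Spp1 also without young replicate 2. In the fit without young replicate 1, 2 osteoblast markers were called higher and 5 lower, beside 13.2% and 19.4% of all tested genes. In bulk RNA, fewer cells of a type and less RNA per cell cannot be told apart.

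Depth was 64881180 to 84535939 reads per library, recovered from the deposited values. Young replicate 1 stood apart: over 12015 genes its log2 values correlated with young replicates 2 and 3 at 0.949 and 0.962, while the latter correlated with each other at 0.996 and the old libraries at 0.995 to 0.997 (Pearson's r across genes, which are not independent replicates). Among the 8 cartilage genes it was the lowest of all 6 libraries in 6 (Sox9, Sox5, Sox6, Comp, Hapln1 and Chad) and the highest in the other 2 (Matn3 and Otor). Over all tested genes it was the lowest library in 48.2% and the highest in 28.8%. The results for the 8 genes are therefore given with and without it, as are the calls in the gene lists.

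The 250 bases before the start of Otor are shown because it was the called gene, with those of Chad, whose window holds the same promoter element and whose level did not separate the groups. RefSeq windows on GRCm38.p6 were found for 6 of the 8 genes (Sox5, Sox6, Matn3, Hapln1, Chad and Otor). The capitals mark the TATA box letters TATAAA, which begin 35 bases before the RefSeq start in Otor (chr2:143078143-143078392, plus strand) and 28 bases before it in Chad (chr11:94564797-94565046, plus strand), each sequence written 5′ to 3′. The RefSeq start of Otor lies before the start that the deposited table gives.
Otor: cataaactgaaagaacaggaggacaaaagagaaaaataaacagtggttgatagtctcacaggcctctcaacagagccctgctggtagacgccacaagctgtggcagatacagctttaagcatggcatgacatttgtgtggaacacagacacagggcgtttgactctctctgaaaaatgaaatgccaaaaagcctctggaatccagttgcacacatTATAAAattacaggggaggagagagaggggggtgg
Chad: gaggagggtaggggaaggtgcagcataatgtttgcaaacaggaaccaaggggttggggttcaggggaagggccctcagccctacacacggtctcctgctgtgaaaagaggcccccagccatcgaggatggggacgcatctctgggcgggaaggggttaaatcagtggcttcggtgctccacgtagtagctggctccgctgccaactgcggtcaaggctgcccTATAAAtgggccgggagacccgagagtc
On either strand, TATAAA was found in 12.4% of 32851 mouse promoter windows of this length. The SOX letters AACAAT and AACAAAG, the RUNX letters ACCACA and the CCAAT box were also searched on both strands (both SOX forms begin with the same letters, AACAA), and none of them lies in either window. They are held by 9.42%, 5.03%, 14% and 33.8% of the windows. G and C make up 46% of the Otor window and 60.4% of the Chad window.

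Otor lies on chromosome 2 from 143078473 to 143081713 (mm10, plus strand), a protein-coding gene of 4 exons with 949 exonic bases. In replicate order, the young libraries had 20.7, 14.7 and 14.9 RPKM, and the old libraries had 8.35, 7.64 and 8.09 RPKM. Every old library was below every young one, with the nearest values at 14.7 and 8.35 RPKM. These levels rest on 1080 to 1276 reads in young and 547 to 670 reads in old. Otor was the 1 of the 8 genes whose groups did not overlap. Old lay wholly below young for 10.2% of the tested genes, and the groups were apart in either direction for 20.8%, so separation alone was common.

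The log2 fold change of Otor, old against young on the scale of log2(RPKM + 1), was -0.96 ± 0.15 (SE, limma adjusted p = 0.0378, 95% interval from -1.32 to -0.60). Of 12015 genes tested with limma, 0.0999% were called lower in old and 1.47% higher, at an adjusted p under 0.05. Without young replicate 1, the highest library, the fold change was -0.81 ± 0.06 (SE, limma adjusted p = 0.0003), and young replicates 2 and 3 were 1.84-fold above the old mean. The call was lost without any one of young replicates 2 and 3 and old replicates 1, 2 and 3 (limma adjusted p = 0.0672, 0.119, 0.196, 0.225 and 0.212), at fold changes of -0.93 to -1.04. In the same order, those fits called 2, 1, 0, 0 and 0 of all 12015 genes lower and 138, 86, 83, 83 and 80 higher. With no filter on low values the limma adjusted p was 0.0777, and 0 of the 8 genes were called where 0.0372% of all 29587 genes were called lower and 0.629% higher. Under upper-quartile, median-of-ratios and quantile scaling the limma adjusted p was 0.0579, 0.0854 and 0.0544, so the call was also lost, at fold changes of -0.97 to -0.99.

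The genomic neighbour of Otor did not share this pattern. Snrpb2, which encodes a protein of the U2 spliceosome particle, ends 5620 bases before Otor on the same strand. It was at 64.6, 35.7 and 35.9 RPKM in young and at 41.0, 40.2 and 38.8 RPKM in old, with overlapping groups (limma adjusted p = 0.971). Young replicate 1 was the highest library for both genes, 1.81-fold above the mean of young replicates 2 and 3 for Snrpb2 and 1.40-fold for Otor. No other gene of the table overlaps Otor. On the other side the nearest gene, Gm11645, starts 424698 bases away and was at or below 0.0817 RPKM in every library.

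The tested genes whose levels followed Otor most closely over the 6 libraries were Psip1 (r = 0.9997), Snapc3 (r = 0.9975) and Gm9442 (r = 0.9969), by Pearson's r of log2 values as a description. Psip1, the gene of a chromatin-bound coactivator, was at 128, 112 and 112 RPKM in young and at 88.9, 86.3 and 87.6 RPKM in old. Snapc3, a subunit of the complex that starts small nuclear RNA genes, was at 67.7, 58.5 and 58.2 RPKM in young and at 47.7, 46.4 and 46.2 RPKM in old. Both had their highest value in young replicate 1 and old libraries below all young ones, like Otor, and neither was called (limma adjusted p = 0.129 and 0.164). Their spans overlap in part on opposite strands of chromosome 4 (Psip1 83455680 to 83486459, Snapc3 83417724 to 83467676). Whether their exons share bases was not examined, so with the strand setting unknown a part of their reads may be uncertain. An r above 0.95 with Otor was reached by 209 genes.

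**Figure D1:**
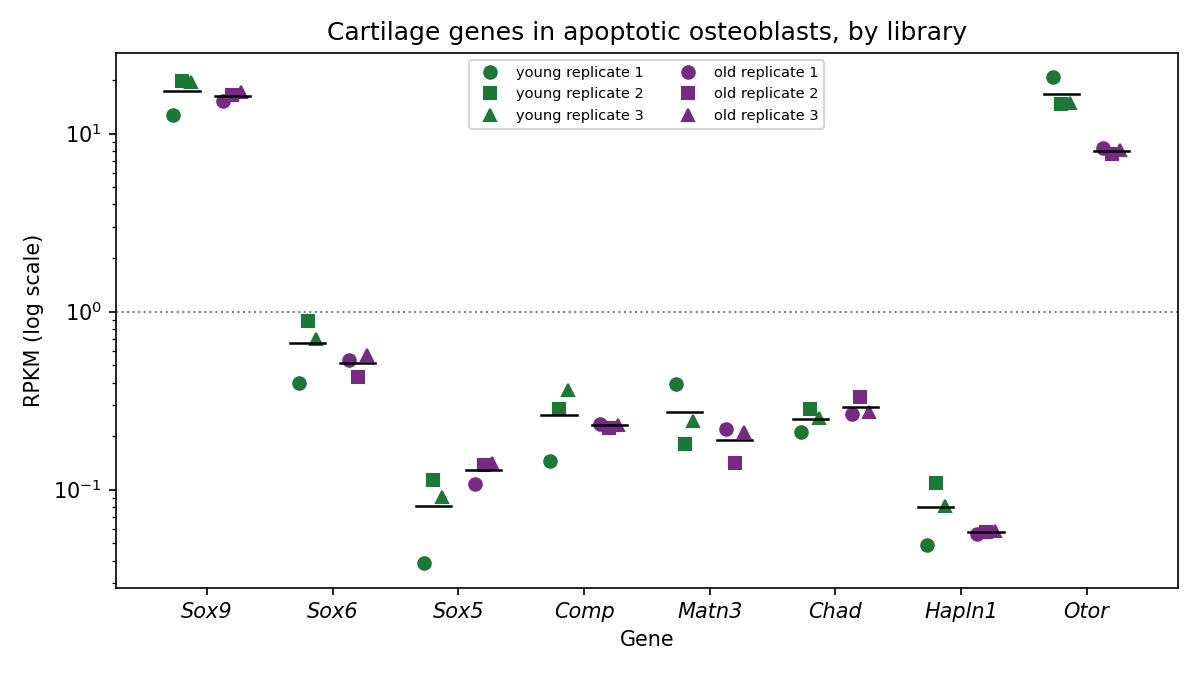
RPKM (log axis) of the 8 cartilage genes in each library, young in green and old in purple, with the replicate given by the symbol, black bars at the group means and a dotted line at 1 RPKM. Otor is the gene whose young libraries (14.7 to 20.7 RPKM) all lie above its old ones (7.64 to 8.35 RPKM), and young replicate 1 (circle) is the lowest young library in 6 of the 8 genes.

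Sox9 (chromosome 11, 112782224 to 112787760, plus strand, 3 exons) was the most abundant SOX gene of the set. In replicate order, the young libraries had 12.7, 19.7 and 19.4 RPKM, and the old libraries had 15.3, 16.5 and 17.1 RPKM. The old libraries lay together between young replicate 1 on one side and young replicates 2 and 3 on the other, so the groups overlapped. By mean level Sox9 was above 90.5% of all gene rows in young and 89.9% in old. The log2 fold change was -0.06 ± 0.18 (SE, limma adjusted p = 0.984), with a 95% interval from -0.48 to 0.37 that leaves room for a moderate change in either direction.

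Without young replicate 1, Sox9 was called lower in old, at -0.25 ± 0.06 (SE, limma adjusted p = 0.0244), and the old mean was 0.833 of the mean of young replicates 2 and 3. In that fit 19.4% of all tested genes were called lower and 13.2% higher, so a lower call was common. Leaving out young replicate 2 or 3 turned the direction, at 0.05 and 0.04 on the log2 scale, with no call (limma adjusted p = 0.927 and 0.984). The ratio of Sox9 to Otor, both per length, was 0.613, 1.35 and 1.30 over the young libraries in replicate order and 1.83, 2.16 and 2.12 over the old ones, with no overlap. The groups were already apart for Otor alone and not for Sox9, so the ratio is not a separate result. Sox9 was below Otor in young replicate 1 alone. BC006965, a gene 248 bases before Sox9, stayed at 0.0666 to 0.171 RPKM.

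The tested genes most like Sox9 over the 6 libraries were the predicted genes Gm15598, Gm43539 and Gm10138 (r = 0.994, 0.9938 and 0.9935), out of 643 genes with r above 0.95. Gm15598 was at 0.384, 1.67 and 1.66 RPKM in young and at 0.899, 0.973 and 1.15 RPKM in old. In all 3 the old libraries also stood between young replicate 1 and young replicates 2 and 3.

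The SOX9 partners were expressed far below it. Sox6 (chromosome 7, 115470872 to 116038796, minus strand) was at 0.399, 0.886 and 0.704 RPKM in young and at 0.538, 0.427 and 0.574 RPKM in old. Its old libraries lay between young replicate 1 and young replicates 2 and 3. Sox5 (chromosome 6, 143828425 to 144781977, minus strand) was at 0.0386, 0.114 and 0.0914 RPKM in young and at 0.107, 0.138 and 0.141 RPKM in old, where old replicate 1 was below young replicate 2. Both genes are long, with 14832 and 14376 exonic bases, so that these low values still rest on 384 to 1020 reads for Sox6 and 36 to 164 reads for Sox5. An opposite-strand gene, Sox5os1, shares 1330 of the exonic bases of Sox5 (9.25%) and was at or below 0.0335 RPKM, so a part of the Sox5 reads is uncertain.

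The 6 genes under the filter were fitted with limma's voom on recovered reads over 22177 genes, where the log2 fold change carries no RPKM pseudocount. That fit called 0.0225% of genes lower and 0.879% higher. Sox6 had a log2 fold change of -0.31 ± 0.29 and Sox5 of 0.75 ± 0.37 (SE, limma voom adjusted p = 0.837 and 0.593). Sox5 and Sox6 thus had opposite signs, and neither was called. Without young replicate 1, an alternative chosen after seeing the data, Sox6 was called lower in old at -0.63 ± 0.13 (SE, limma voom adjusted p = 0.00361), while 14.6% of all genes were called lower and 7.91% higher. On log2(RPKM + 1) without that library Sox6 was not called (limma adjusted p = 0.148). Sox5 was at 0.32 ± 0.19 without it (SE, limma voom adjusted p = 0.274).

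The matrix proteins that bind collagen were low in both groups. Comp (chromosome 8, 70373558 to 70382066), whose pentameric product binds collagens II and IX, was at 0.145, 0.282 and 0.362 RPKM in young and at 0.235, 0.223 and 0.230 RPKM in old. Matn3 (chromosome 12, 8947929 to 8972028), a subunit of matrilin filaments, was at 0.394, 0.180 and 0.244 RPKM in young and at 0.220, 0.141 and 0.210 RPKM in old. The old values of Comp lay inside the range of the young ones, old replicate 2 was the lowest library for Matn3, and the groups of both genes overlapped. Comp rested on 28 to 89 reads and Matn3 on 32 to 77 reads per library. Their log2 fold changes were -0.13 ± 0.34 and -0.44 ± 0.34 (SE, limma voom adjusted p = 0.956 and 0.796), and without young replicate 1 -0.48 ± 0.23 and -0.16 ± 0.29 (SE, limma voom adjusted p = 0.168 and 0.754).

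Hapln1 was the lowest of the 8 genes in old, and Chad differed least between libraries among the 6 low ones. Hapln1 (chromosome 13, 89540636 to 89611832), the link protein gene, was at 0.0488, 0.110 and 0.0811 RPKM in young and at 0.0562, 0.0577 and 0.0588 RPKM in old. The 3 old values were close together, above young replicate 1 and below young replicates 2 and 3, on 16 to 43 reads per library. Chad (chromosome 11, 94565047 to 94569127), a leucine-rich protein that binds collagen and an integrin, was at 0.211, 0.284 and 0.251 RPKM in young and at 0.268, 0.331 and 0.273 RPKM in old. The groups overlapped, on 23 to 42 reads per library. Their log2 fold changes were -0.42 ± 0.35 and 0.21 ± 0.25 (SE, limma voom adjusted p = 0.811 and 0.881), and -0.70 ± 0.32 and 0.11 ± 0.29 without young replicate 1 (SE, limma voom adjusted p = 0.15 and 0.837).

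The intervals of these 6 low genes are wide. With all 6 libraries, the 95% interval of the log2 fold change ran from -0.99 to 0.37 for Sox6, from -0.11 to 1.61 for Sox5, from -0.93 to 0.66 for Comp, from -1.24 to 0.36 for Matn3, from -1.23 to 0.39 for Hapln1 and from -0.36 to 0.78 for Chad. In the same fit Otor was at -1.04, a value inside the intervals of Matn3 and Hapln1. Young replicate 1 was the lowest or highest library for each of the 6, and its part in the spread was not tested.

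**Figure D2:**
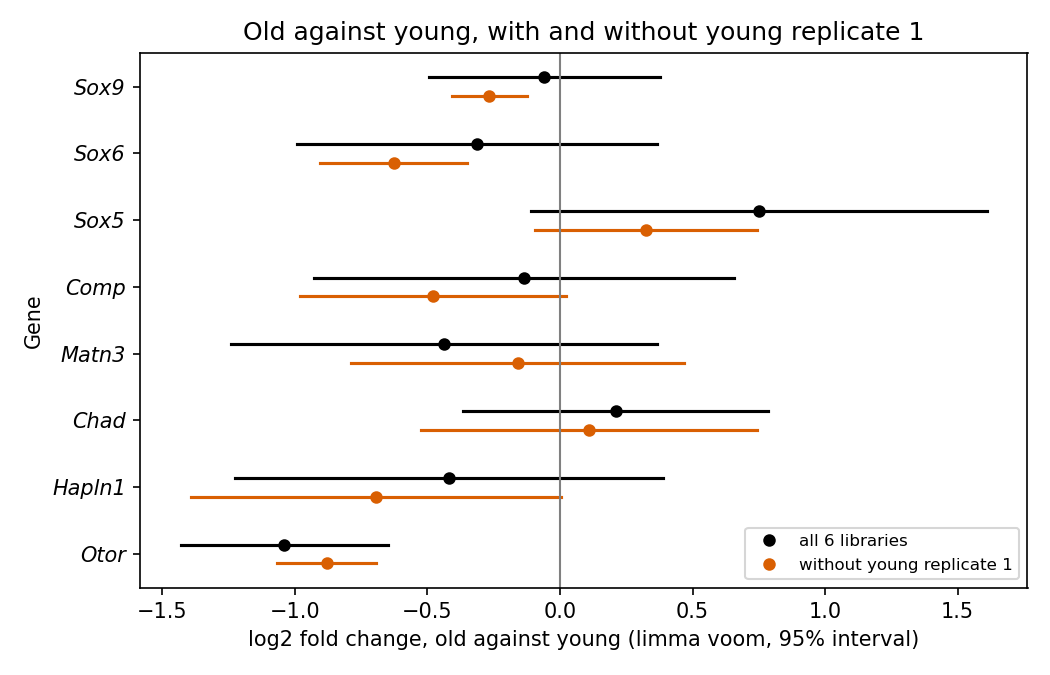
Log2 fold change, old against young, of the 8 cartilage genes from limma voom on recovered reads, with 95% intervals, for all 6 libraries (black) and without young replicate 1 (orange). The interval of Otor lies below 0 in both fits, and those of Sox9 and Sox6 do so in the fit without young replicate 1.

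Sox9 and Otor together made up 94.3 to 96.4% of the summed RPKM of the 8 genes. The sum was 34.7, 36.3 and 36.0 RPKM in young and 25.0, 25.5 and 26.7 RPKM in old. Young replicate 1 reached a like sum with more Otor and less Sox9 than the other young libraries. The other 6 genes together came to 1.24, 1.86 and 1.73 RPKM in young and 1.42, 1.32 and 1.49 RPKM in old, where the groups overlapped. They also overlapped for Sox9 and were apart for Otor alone, so the sum of the 8 genes is not a separate result.

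Other genes of cartilage were taken from lists set beside the 8 genes. Of 10 chondrocyte markers 7 had values (2 with at least 1 RPKM in 3 libraries, Sox9 and Col2a1). Col2a1, the defining collagen of cartilage, was at 21.5, 47.1 and 53.6 RPKM in young and at 37.7, 38.5 and 39.5 RPKM in old, with the old libraries between young replicate 1 and the others as for Sox9. Col10a1, the collagen of hypertrophic cartilage, had 0 to 4 reads per library, and Col9a1 had 4 to 14. The summed level of the 7 markers was 35.2, 68.1 and 74.3 RPKM in young and 54.3, 56.7 and 58.0 RPKM in old, so the groups overlapped. Without young replicate 1, Col2a1 and Sox9 were called lower (limma adjusted p = 0.00913 and 0.0244). That fit called 19.4% of all tested genes lower and 13.2% higher. The part of any chondrocyte-like cells in the Otor values was not tested.

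Adipocyte, blood and endothelial markers were low, and 0 of 4 tested tendon genes were called with all 6 libraries. Over all tested genes the shares called were 1.47% higher and 0.0999% lower. Egr1 and Fmod were called lower without young replicate 1 (limma adjusted p = 0.0341 and 0.00895), in the fit that called 19.4% of all tested genes lower. The 7 tendon and ligament genes, Comp among them, summed to 180 to 237 RPKM in young and 187 to 197 RPKM in old, carried by Fmod and Egr1, while the tendon marker Tnmd had 0 to 4 reads. Of the 6 adipocyte genes, the 5 blood and macrophage genes with values and the 5 endothelial genes, 0 passed the filter. Their sums were 0.748 to 1.01, 1.47 to 1.81 and 0.0994 to 0.139 RPKM in young and 0.754 to 0.875, 1.63 to 2.15 and 0.104 to 0.122 RPKM in old. Adipoq had 0 to 2 reads and the leukocyte marker Ptprc 0 to 4 reads.

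Close relatives of the 8 genes were not called. Of 19 with values 8 were tested with limma, 0 were called in either direction, and their median log2 fold change was -0.06. Over all tested genes 1.47% were called higher and 0.0999% lower, so 0 of 8 lies near those shares. Of the MIA family, Mia3, which exports collagens from the endoplasmic reticulum, was at 60.5, 92.3 and 91.8 RPKM in young and at 74.5, 74.0 and 75.8 RPKM in old, and Mia itself was at or below 0.199 RPKM. Matn2 and Matn4, matrilins like Matn3, had log2 fold changes of -0.23 ± 0.09 and -0.30 ± 0.16, and Thbs1 and Vcan, relatives of Comp and of aggrecan, 0.48 ± 0.32 and 0.22 ± 0.13 (SE, limma adjusted p = 0.402, 0.653, 0.737 and 0.676). Of these 8, without young replicate 1, 5 were called lower and 0 higher, beside 19.4% and 13.2% of all tested genes.

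The cartilage collagens, the other matrix genes and the regulators held no called gene with all 6 libraries: limma called 0 of 3 collagens, 0 of 5 other matrix genes and 0 of 9 chondrocyte regulators, at median log2 fold changes of -0.11, -0.15 and -0.11. Over all tested genes the shares called were 1.47% higher and 0.0999% lower, so few calls could come up in lists this short. At an unadjusted p under 0.05, limma had 718 genes higher and 631 lower over all 12015, whose median log2 fold change was 0.01. Col27a1 was at 9.22, 12.6 and 13.5 RPKM in young and at 8.12, 8.62 and 8.41 RPKM in old (limma adjusted p = 0.336). Mgp, an inhibitor of calcification, had a young mean of 643 ± 70.9 RPKM and an old mean of 1017 ± 59.6 RPKM (SD, n = 3 each, limma adjusted p = 0.0753). Runx2, the osteoblast factor that also acts in hypertrophic chondrocytes, was at 5.11 ± 0.809 and 3.91 ± 0.203 RPKM, and Fgfr3, a receptor that slows chondrocyte growth, at 2.71 ± 1.04 and 1.57 ± 0.0348 RPKM (SD, n = 3 each, limma adjusted p = 0.423 and 0.492). Without young replicate 1, 3 collagens, 3 other matrix genes and 4 regulators were called lower and 1 matrix gene, Mgp, higher, beside 19.4% and 13.2% of all tested genes.

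Enzymes that build and cut the proteoglycans of cartilage were expressed more broadly. Of 26 genes of proteoglycan assembly 16 were tested and 0 were called, with a median log2 fold change of 0.03. With all 6 libraries, 1.47% of all tested genes were called higher and 0.0999% lower. The sulfate transporter gene Slc26a2 had means of 5.40 ± 1.52 (young) and 4.12 ± 0.168 RPKM (old), and Cd44, a hyaluronan receptor, of 15.6 ± 5.36 and 20.8 ± 2.22 RPKM (SD, n = 3 each, limma adjusted p = 0.732 and 0.666). Of 9 tested enzymes and inhibitors that act on aggrecan or COMP, Timp3 rose and 0 fell, with a median of -0.04. Timp3, an inhibitor of aggrecan-cutting ADAMTS enzymes, went from 30.4, 33.0 and 29.9 RPKM in young to 59.9, 52.7 and 58.0 RPKM in old, and its log2 fold change was 0.85 ± 0.09 (SE, limma adjusted p = 0.00934). That call was lost without young replicate 3 or any one old replicate (limma adjusted p = 0.051 to 0.102). The collagenase gene Mmp13 was at 66.0, 25.1 and 46.8 RPKM in young and at 12.1, 11.2 and 21.6 RPKM in old, and Timp1 at 62.8 ± 22.2 and 140 ± 10.4 RPKM (SD, n = 3 each), neither called (limma adjusted p = 0.191 and 0.0881). Without young replicate 1, 2 of these 9 genes were called higher and 4 lower, and 3 of 16 assembly genes lower, beside 13.2% of all tested genes called higher and 19.4% lower.

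**Figure D3:**
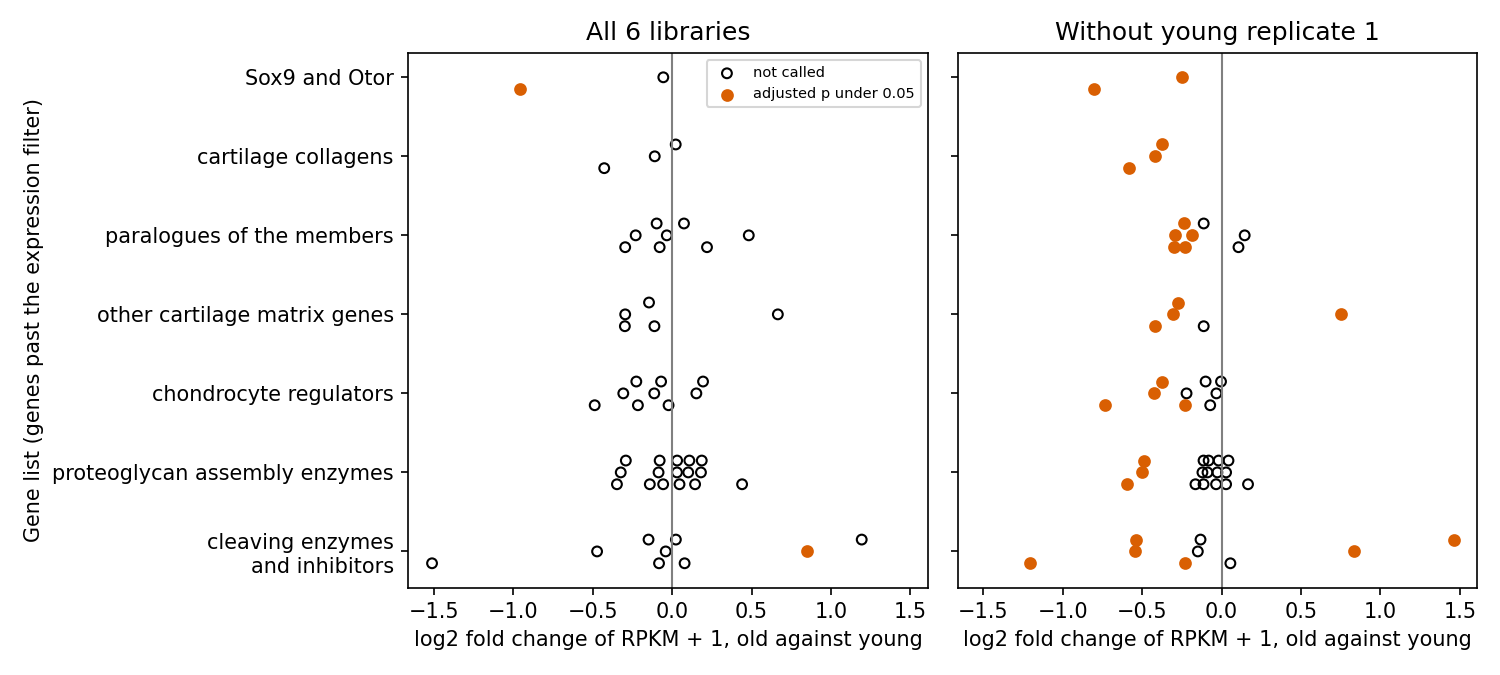
Log2 fold change of RPKM + 1, old against young, for the genes past the expression filter among the 8 cartilage genes and in 6 lists of cartilage genes (cell type markers are not plotted), with all 6 libraries (left) and without young replicate 1 (right). Filled orange points are genes with a limma adjusted p under 0.05: Otor and Timp3 on the left, and on the right many more, mostly below 0.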

How the data were processed

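Messenger RNA was profiled in 6 libraries, 3 young and 3 old. The authors deposited RPKM per gene, and per the submitters' processing notes they used fastp, STAR, HTSeq and edgeR (no versions given) on mm10. The strand setting is not given in the sources used here, nor is the annotation. RPKM times gene length gave whole reads for 100% of values within 0.01 of a read. Among genes with 1 to 5 reads 77.5 to 79.3% had an even number, so the reads behind a value are not all independent and intervals from their number alone would be too narrow.

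Old was compared with young on log2(RPKM + 1), with limma 3.58.1 (R 4.3.3), a term for group alone and a trended prior variance, over 12015 genes with at least 1 RPKM in at least 3 libraries, at a Benjamini-Hochberg adjusted p under 0.05 (two-sided). Of the 8 genes, 2 passed this filter. The others were described by limma's voom on recovered reads, for genes with at least 10 reads in total. The fit was tested on simulated counts with the same spread in every library. That test held no outlying library like young replicate 1 and does not cover such a case. The genes and lists were chosen with earlier results of these data known. Named beside them were up to 4 genes of smallest p per list and the 3 genes most like each tested member. Alternatives were other pseudocounts, filters, scalings, variance models, library weights, a block for the replicate number and the removal of each library in turn. A looser adjusted p cutoff of 0.1 was also used, on the unchanged main fit. The main comparison did not pair libraries by replicate number, and whether the numbers pair them was not settled.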

Additional observations from a re-analysis of the deposited data

How the results depend on the processing

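The number of these genes called higher in old was 0 under all 20 alternatives. The number called lower was 1 (Otor) in the main comparison and in 7 alternatives. Among the 7 was the main fit at a looser cutoff of 0.1, where the Otor call could not be lost. It was 0 with no filter on low values, with upper-quartile, median-of-ratios or quantile scaling and with the replicate block. The replicate block called 0 of all 12015 genes lower and 82 higher. The number of these genes called lower was 2 with library weights (Otor and Sox9). That setting called 2957 of all 12015 genes lower and 2119 higher. When 1 library was left out, the number was 2 (Otor and Sox9) without young replicate 1 and 0 without each of the others. With voom without the expression filter and without young replicate 1 it was 3 (Otor, Sox6 and Sox9). These last fits, without young replicate 1, called 19.4% and 14.6% of all genes lower. The cause of these moves was not tested. The log2 fold change of Otor was -1.04 to -0.79 over its alternatives, with limma adjusted p from 1.45e-05 to 0.225. With the replicate block it was -0.96 (limma adjusted p = 0.104). Deviations of same-numbered libraries from their group means correlated at -0.026, -0.436 and 0.329 for replicates 1, 2 and 3. Differently numbered libraries were not compared, so these values cannot decide whether the numbers pair the libraries. Sox9 ran from -0.25 to 0.05 when 1 library was left out, turning to 0.048 and 0.036 without young replicates 2 and 3. Comp ran from -0.10 to 0.02, turning to 0.021 without young replicate 3. The signs of Sox5, Sox6, Matn3, Hapln1 and Chad held in 17 of 17 alternatives each. The looser cutoff, the fit with no variance trend and the replicate block returned the coefficient unchanged, so they could not turn a sign. Hapln1, Chad, Comp and Matn3 rested on 16 to 89 reads per library.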

Other observations

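The genes given here lie under the expression filter, had groups that did not overlap and were picked out after their values were seen. The first 3 encode the chains of type IX collagen, to which COMP and matrilin-3 bind. Col2a1 and Col11a2, chondrocyte markers of the same list, had overlapping groups and lower means in old. Their means were 40.72 and 0.689 RPKM in young and 38.55 and 0.612 RPKM in old. Col9a1 was at 0.0182, 0.0102 and 0.0143 RPKM in young and at 0.0233, 0.0366 and 0.0342 RPKM in old. Col9a2 was at 0.209, 0.196 and 0.331 RPKM in young and at 0.398, 0.437 and 0.436 RPKM in old. Col9a3 was at 0.312, 0.247 and 0.2003 RPKM in young and at 0.335, 0.464 and 0.338 RPKM in old. None was called with all 6 libraries (limma voom adjusted p = 0.493, 0.285 and 0.479). Col9a3 was called higher without young replicate 1, at 0.74 ± 0.23 on the log2 scale, and Col9a1 and Col9a2 were not called (SE, limma voom adjusted p = 0.0359, 0.21 and 0.0518). Csgalnact1, an enzyme of chondroitin sulfate synthesis, lay the other way, at 0.466, 0.501 and 0.530 RPKM in young and 0.423, 0.344 and 0.375 RPKM in old (limma voom adjusted p = 0.474, and 0.0533 without young replicate 1). Among 6974 genes under the filter with a mean of at least 0.05 RPKM, 15.5% had groups that did not overlap, a share that does not cover Col9a1, whose mean was lower. Mia, of the family of Otor, was at 0.0930, 0.0389 and 0.0243 RPKM in young and at 0.143, 0.0933 and 0.199 RPKM in old, on 2 to 16 reads per library (limma voom adjusted p = 0.46), with young replicate 1 and old replicate 2 nearly level. Also under the filter with groups apart were the listed genes Hapln3, Bglap and Tnmd, higher in old, and Mmp3, lower in old. They rested on 0 to 9, 16 to 47, 0 to 4 and 0 to 4 reads per library. The share of 15.5% does not cover Hapln3, Tnmd and Mmp3 either, whose means were also below 0.05 RPKM.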
